A study of Mus musculus with 24 samples.

Results

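The response of Atf4-null mouse embryonic fibroblasts to tunicamycin was set against the response of Perk-null fibroblasts. The 8 arrays compared, of 24 in the series, were all arrays labelled Atf4-null or Perk-null. They fall into 4 groups of 2 arrays, which are tunicamycin-treated Atf4-null, untreated Atf4-null, tunicamycin-treated Perk-null and untreated Perk-null cells. The quantity examined was a difference of responses, the treated minus untreated difference in Atf4-null cells minus that in Perk-null cells, so that a positive value means a higher change in Atf4-null cells. The comparison asks which parts of the stress response depend on PERK without depending on ATF4, and which on ATF4 without depending on PERK.

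When glycoproteins misfold in the endoplasmic reticulum (ER), 3 sensors respond. PERK, encoded by Eif2ak3, is a kinase that phosphorylates the translation factor eIF2α. This slows most protein synthesis and favours translation of the ATF4 mRNA, and ATF4 then activates genes of amino acid supply and redox balance, in what is called the integrated stress response (ISR). Other kinases can also phosphorylate eIF2α, so ATF4 can be made without PERK. The other sensors, ATF6 and IRE1 with its target XBP1, act mainly on genes of ER chaperones and ER-associated degradation. Tunicamycin blocks N-glycosylation and so causes misfolding in the ER.

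By their labels, the treated cells had 12 h in tunicamycin (2 µg per mL), while a protocol shared by the series allows 12 or 24 h. For untreated Perk-null replicate 2, the name of the data file gives a mock treatment of 24 h. The genotypes are given as Atf4 -/- and Perk -/- and no clone or passage is given. Both lines grew in medium with added non-essential amino acids and 2-mercaptoethanol. Wild-type arrays, 4 treated and 4 untreated, served as background. Replicates 1 and 2 of each shared the slides of the Atf4-null arrays and replicates 3 and 4 shared 1 of the slides of the Perk-null arrays. The labels give 1 wild type, but these sets stood apart already without treatment: complement C3 read 7.23 and 6.52 on the untreated arrays of the Atf4-null slides and -0.84 and -0.74 on those of the Perk-null slide. Values set against wild type therefore depend on which set is used, and each line is set against the wild type that shared its slides. For Perk-null cells this wild type lay on 1 of their slides. The other, with treated replicate 1 and untreated replicate 2, held no wild-type array. Wild type of the same slides, or of a line's slides, is meant in this way below. Nothing in the labels says that replicates came from separate cultures, so the p-values cover the spread of these arrays alone, and that spread may be technical.

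Levels below are log2 signal minus the 75th percentile of the array. That percentile was 285 to 408 intensity units on 7 of the 8 arrays and 111 on treated Atf4-null replicate 1, and the software marked between 45.5% and 58.2% of probes as well above background. The treated Atf4-null arrays lay on 1 slide and the untreated ones on another, so slide and treatment cannot be told apart in that line. Each slide of the Perk-null arrays held 1 treated and 1 untreated array. The median SD per gene was 0.20 and 0.31 on treated and untreated Atf4-null arrays and 0.14 on either group of Perk-null arrays. Of 14 fibroblast markers, 12 were well above background on all 8 arrays. The lines also differed in epithelial markers, whose summed level was 0.27 to 0.74 (log2) on the Atf4-null arrays and 5.63 to 5.94 on the Perk-null arrays, with 3 of the 8 genes well above background on all 8 arrays. On the Perk-null arrays most of that sum was Krt18, and not all members followed it. Krt18, a simple epithelial keratin, read -5.46 to -3.82 on the Atf4-null and 5.43 to 5.82 on the Perk-null arrays, while Cldn7, a tight junction protein, read 0.04 and -0.37 on treated Atf4-null arrays and -1.37 to -1.07 on the Perk-null arrays. The Perk-null arrays of 1 slide, treated replicate 1 and untreated replicate 2, stood apart from those of the other slide in adipocyte markers. There the fatty acid binding protein Fabp4 read 1.77 treated and 2.19 untreated, against -2.50 treated and -2.31 untreated on the other slide, and the adipokine Adipoq 0.35 and 0.66 against -7.03 and -6.78. The part of these markers in the results was not tested, and in bulk RNA fewer cells of a type and less RNA per cell cannot be told apart.

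Atf4 read -4.27 and 0.01 on the treated and 2.79 and -0.05 on the untreated Atf4-null arrays, against 7.85 and 7.95 on the treated and 6.56 and 6.76 on the untreated Perk-null arrays. Every Atf4-null array thus read far below every Perk-null array, and wild-type arrays read 8.63 to 9.14 treated and 7.20 to 7.65 untreated. A dimmer Atf4 probe also read lower on every Atf4-null array than on any Perk-null array. Eif2ak3 read 1.20 and 1.37 on the treated and 0.77 and 1.38 on the untreated Atf4-null arrays, against 0.00 and 0.28 on the treated and 0.00 and -0.47 on the untreated Perk-null arrays. Every Perk-null array read below every Atf4-null array for this gene, but signal remained, and where the Eif2ak3 probe lies relative to the deletion is not given in the sources used here. The difference of responses was -0.17 ± 0.40 (SE) for Eif2ak3 (limma, adjusted p = 0.837).

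Many more genes differed between treated and untreated arrays in Atf4-null than in Perk-null cells. In Atf4-null cells this contrast is also one between slides, and in Perk-null cells it is not. The part of the slides in the values below was not tested. Across 13690 genes the SD of the response was 0.87 in Atf4-null and 0.42 in Perk-null cells. It was 1.09 and 0.73 in the wild-type cells of their slides, the same order. Treated and untreated wild-type arrays of the Atf4-null slides also lay on different slides. In the fit of the 8 arrays 1412 genes (10.3%) passed an adjusted p of 0.05 for the Atf4-null response, 622 up and 790 down, and 8 (0.0584%), all up, for the Perk-null response. A fit of all 24 arrays, with wild type split by slide set, called 4655 (34%) and 522 (3.81%). Both fits use 1 spread per gene for the lines, although the measured spread differed between them.

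The difference of responses itself passed for 21 genes (0.153%) over the 8 arrays, limma's lowest adjusted p being 0.0467, and 2849 (20.8%) had an unadjusted p under 0.05. Of the 21, 8 (0.0584%) were higher and 13 (0.095%) lower in Atf4-null cells. The count depended on single arrays: without untreated Atf4-null replicate 1 the count was 2025, without treated Atf4-null replicate 2 it was 39, and without any other 1 array it was 0, with 1657 to 2752 genes at an unadjusted p under 0.05 over these fits. With the slide of the Perk-null arrays as a block none of the 21 passed (limma, lowest adjusted p = 0.126, 2357 genes at an unadjusted p under 0.05). This limit holds for each adjusted p of a difference of responses over 8 arrays given below. For the response of 1 line alone, calls under this block were not recorded. Over all 24 arrays, with the same differences and a pooled spread, 950 genes (6.94%) were higher and 1769 (12.9%) lower, the 21 among them. A value after ± below is the SE from the 8 arrays, also beside an adjusted p over 24 arrays. Where no number of arrays is named, adjusted p-values of single genes below are from the 24 arrays. Those after subtraction of wild type are from 16 arrays. The fit of 24 arrays pools the spread of all groups in the series, which need not be the spread of the 4 groups compared. Its p-values can be too low for genes that spread more on the Atf4-null arrays. The share of calls that were higher was 38.1% in the fit of 8 arrays, 27.7% with quantile normalization, 15.7% with array medians and 22.4% with normexp background correction. In 2166 genes (15.8%) all treated minus untreated array differences of Atf4-null cells exceeded all those of Perk-null cells, and in 3335 (24.4%) all lay below them. Scaling moves these values, and array medians shift all genes alike: the median difference over all genes was -0.12 with the 75th percentile, -0.04 with quantile normalization and -0.75 with array medians. List medians are therefore given beside -0.12, the median of all genes tested.

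ER chaperones and folding enzymes responded more in Atf4-null than in Perk-null cells. All 26 listed genes were tested. Their median response was 1.62 in Atf4-null and 0.91 in Perk-null cells, against 1.74 and 1.99 in the wild-type cells of their slides. The median difference was 0.67, and 21 members had a positive difference, or 13 with array median scaling, while 21 lay above the median of all genes with either. Over 24 arrays 14 were called higher and 0 lower (limma), beside 6.94% and 12.9% of all genes. With the wild-type response of the same slides subtracted 9 were called higher and 0 lower, where 5.56% of all genes passed. In each line alone, over 24 arrays, 23 rose and 1 fell in Atf4-null cells and 20 rose and 0 fell in Perk-null cells. Of all genes 34% and 3.81% passed in these lines.

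Sdf2l1 read 6.23 and 6.07 on the treated and 1.17 and 1.59 on the untreated Atf4-null arrays, against 2.28 and 2.57 on the treated and 1.74 and 1.26 on the untreated Perk-null arrays. Sdf2l1, a component of the ER chaperone complex around BiP, thus rose in Atf4-null cells to near the 6.27 to 6.77 of treated wild-type arrays, while the treated Perk-null arrays stood about 1 unit above the untreated ones. The difference of responses, 3.85 ± 0.36 (SE), is 14.4-fold (adjusted p = 0.0467 over 8 arrays and 1.17e-06 over 24). After subtraction of the wild-type responses it was 4.44 (adjusted p = 0.00108), and with 1 slide of Perk-null arrays at a time 3.94 and 3.76.

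Creld2 read 9.11 and 9.05 on the treated and 5.50 and 5.69 on the untreated Atf4-null arrays, against 6.21 and 6.30 on the treated and 5.51 and 5.21 on the untreated Perk-null arrays. Creld2, an ER protein with disulfide isomerase activity, passed over 8 arrays as well, with a difference of 2.59 ± 0.28 (adjusted p = 0.0467 and 4.96e-06 over 24). Hyou1 read 2.38 and 2.52 on the treated and -0.89 and -0.54 on the untreated Atf4-null arrays, against -0.59 and -1.02 on the treated and -1.64 and -1.95 on the untreated Perk-null arrays. Hyou1, a large HSP70-like chaperone that acts as nucleotide exchange factor of BiP, had a difference of 2.18 ± 0.34 (adjusted p = 0.0583 and 9.92e-05 over 24). The treated Perk-null values of Hyou1 overlapped the untreated Atf4-null values.

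Further members with differences above 1 were called over 24 arrays only. Ero1b, an oxidase that recharges disulfide isomerases, differed by 2.46 ± 0.44 (adjusted p = 0.000331), and the disulfide isomerase Pdia4 by 2.09 ± 0.29 (adjusted p = 0.000487). Hsp90b1, the ER HSP90 GRP94, differed by 1.74 ± 0.42 (adjusted p = 0.00133), with responses of 3.06 and 1.32. For Dnajb9, a BiP co-chaperone, the responses were 3.32 and 1.94 (adjusted p of the difference = 0.000223), and a dimmer Dnajb9 probe gave a difference of 0.70 in place of 1.38.

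The responses of BiP differed less. Hspa5 read 8.56 and 8.59 on the treated and 6.54 and 6.91 on the untreated Atf4-null arrays, against 7.42 and 7.54 on the treated and 6.26 and 6.21 on the untreated Perk-null arrays. Hspa5, which encodes BiP, rose in both lines, by 1.84 and 1.25 (adjusted p = 3.35e-07 and 5.71e-05 over 24 arrays), and its treated levels in both lines stayed below the 9.05 to 9.23 of treated wild type. The difference of 0.60 ± 0.28 (adjusted p = 0.281 over 8 arrays, 0.0305 over 24) became -0.04 with array median scaling and 0.33 (adjusted p = 0.591) after subtraction of wild type. The member with the lowest difference, Ero1a, singled out after its values were seen, had responses of -1.47 in Atf4-null and -0.86 in Perk-null cells.

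**Figure D1:**
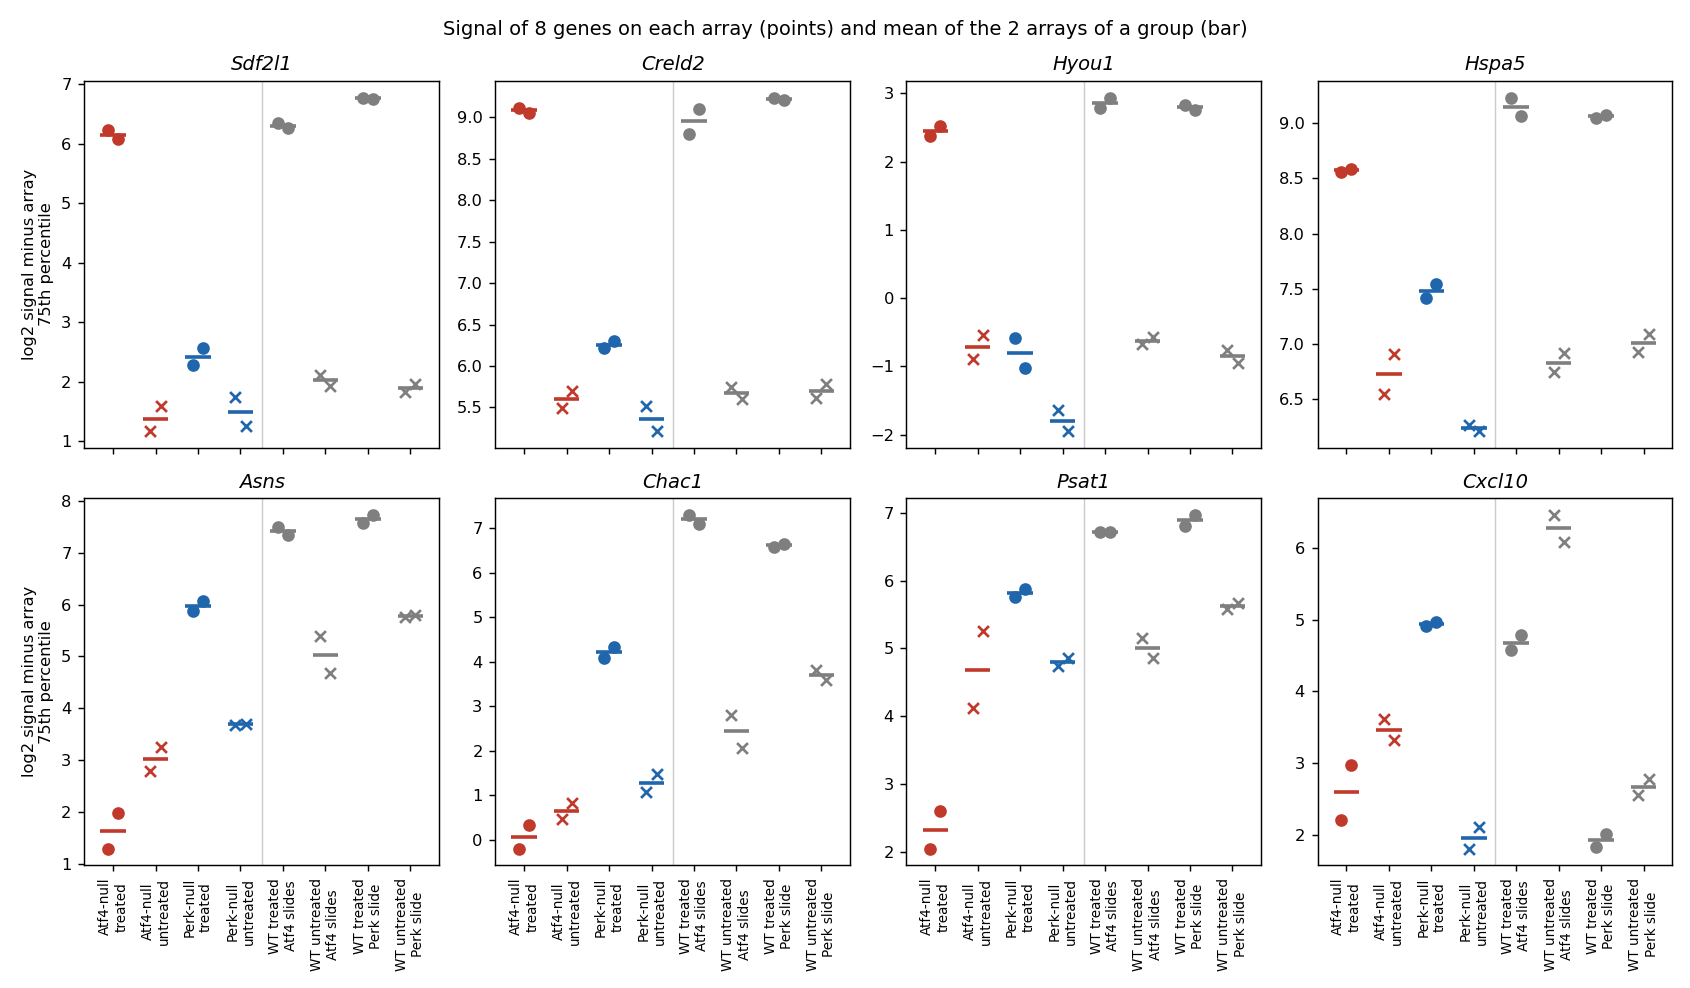
Log2 signal minus the array's 75th percentile (y axes, which do not start at 0) for 8 genes on each array, by group (x axes). Circles are treated and crosses untreated arrays, bars the means of 2 arrays. Treated Atf4-null arrays lie near treated wild type for Sdf2l1, Creld2 and Hyou1 and below their own untreated arrays for Asns, Psat1 and Chac1.

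Genes of amino acid supply showed the opposite order. In the list of amino acid and one-carbon synthesis, where 18 of 19 genes were tested and Pycr1 was not, the median response was -0.75 in Atf4-null and 0.59 in Perk-null cells, against 1.83 and 1.66 in wild type. The median difference was -1.27. Over 24 arrays 0 genes were called higher and 11 lower (limma), beside 6.94% and 12.9% of all genes. After subtraction of wild type it was 0 and 3, where 5.56% of all genes passed. In Atf4-null cells 1 rose and 8 fell, and in Perk-null cells 5 rose and 0 fell, where 34% and 3.81% of all genes passed.

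Asns read 1.29 and 1.99 on the treated and 2.78 and 3.25 on the untreated Atf4-null arrays, against 5.88 and 6.08 on the treated and 3.68 and 3.70 on the untreated Perk-null arrays. Asns, asparagine synthetase, thus fell with tunicamycin in Atf4-null cells, by 1.38 (limma, adjusted p = 0.000473 over 24 arrays and 0.0318 over 8). In Perk-null cells it rose by 2.29 over 24 arrays (adjusted p = 5.65e-05), which did not pass over 8 (adjusted p = 0.0719). The difference was -3.67 ± 0.41 (adjusted p = 0.0467 over 8 arrays and 2.61e-05 over 24), and -4.19 after subtraction of wild type (adjusted p = 0.00446). With 1 slide of Perk-null arrays at a time it was -3.78 and -3.56.

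Psat1 read 2.05 and 2.61 on the treated and 4.12 and 5.25 on the untreated Atf4-null arrays, against 5.75 and 5.88 on the treated and 4.75 and 4.86 on the untreated Perk-null arrays. Psat1, the aminotransferase of serine synthesis, differed by -3.37 ± 0.54 (adjusted p = 0.0634 over 8 arrays and 0.000109 over 24), and its second probe gave -2.49. All 4 treated and untreated Perk-null arrays lay above the treated Atf4-null arrays, while untreated Atf4-null replicate 2 lay above both untreated Perk-null arrays. Mthfd2, a mitochondrial folate enzyme, had responses of -1.50 and 1.48 and a difference of -2.98 ± 0.47 (adjusted p = 0.000414 over 24 arrays). For Cth, cystathionine gamma-lyase, the responses were -1.86 and 0.45, against 4.16 and 3.83 in wild type, and the difference was -2.31 ± 0.64 (adjusted p = 0.00328 over 24 arrays). Aldh1l2, a mitochondrial folate dehydrogenase, had a difference of -2.85 ± 1.49 that did not pass (adjusted p = 0.0629); nor did that of threonine dehydrogenase Tdh, which had the opposite sign at 2.83 (adjusted p = 0.128).

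Amino acid transporters, all 16 tested, had a median response of 0.03 in Atf4-null and 0.60 in Perk-null cells and a median difference of -1.28. Over 24 arrays 1 higher and 8 lower of 16 were called (limma), beside 6.94% and 12.9% of all genes. After subtraction of wild type 0 higher and 2 lower were called, where 5.56% of all genes passed. Slc3a2 read 6.47 and 6.08 on the treated and 5.07 and 4.73 on the untreated Atf4-null arrays, against 7.71 and 7.67 on the treated and 4.53 and 4.57 on the untreated Perk-null arrays. Slc3a2, the heavy chain shared by several transporters, rose in both lines, and the difference of -1.76 ± 0.31 passed over 24 arrays (adjusted p = 0.000506). Slc6a9, a glycine transporter, had responses of 0.69 and 2.90 and differed by -2.21 ± 0.42 (adjusted p = 0.00172). The arginine transporter Slc7a1 differed by -1.88 ± 0.61 (adjusted p = 0.00585). For Slc7a5, the light chain of a leucine transporter, the brighter probe gave -2.61 (adjusted p = 0.00835) and the other 0.58, so its probes disagree. Slc7a11, the cystine transporter, was not well above background on any Atf4-null array, and on Perk-null arrays it was at least 1.84-fold higher with tunicamycin.

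Cytosolic aminoacyl-tRNA synthetases, which charge tRNAs with amino acids, had a median response of -0.43 in Atf4-null and 0.42 in Perk-null cells, against 1.18 and 1.15 in wild type. All 20 were tested, and the median difference was -0.68. Over 24 arrays 0 higher and 8 lower of 20 were called, beside 6.94% and 12.9% of all genes. After subtraction of wild type it was 0 and 2, where 5.56% of all genes passed. Mars1, for methionine, differed by -2.05 ± 0.30 and Cars, for cysteine, by -1.59 ± 0.30, with the SE from 8 arrays. Over 24 arrays the limma adjusted p was 0.00172 for Mars1 and 0.000198 for Cars. Cars fell by 0.69 in Atf4-null cells and rose by 0.90 in Perk-null cells.

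**Figure D2:**
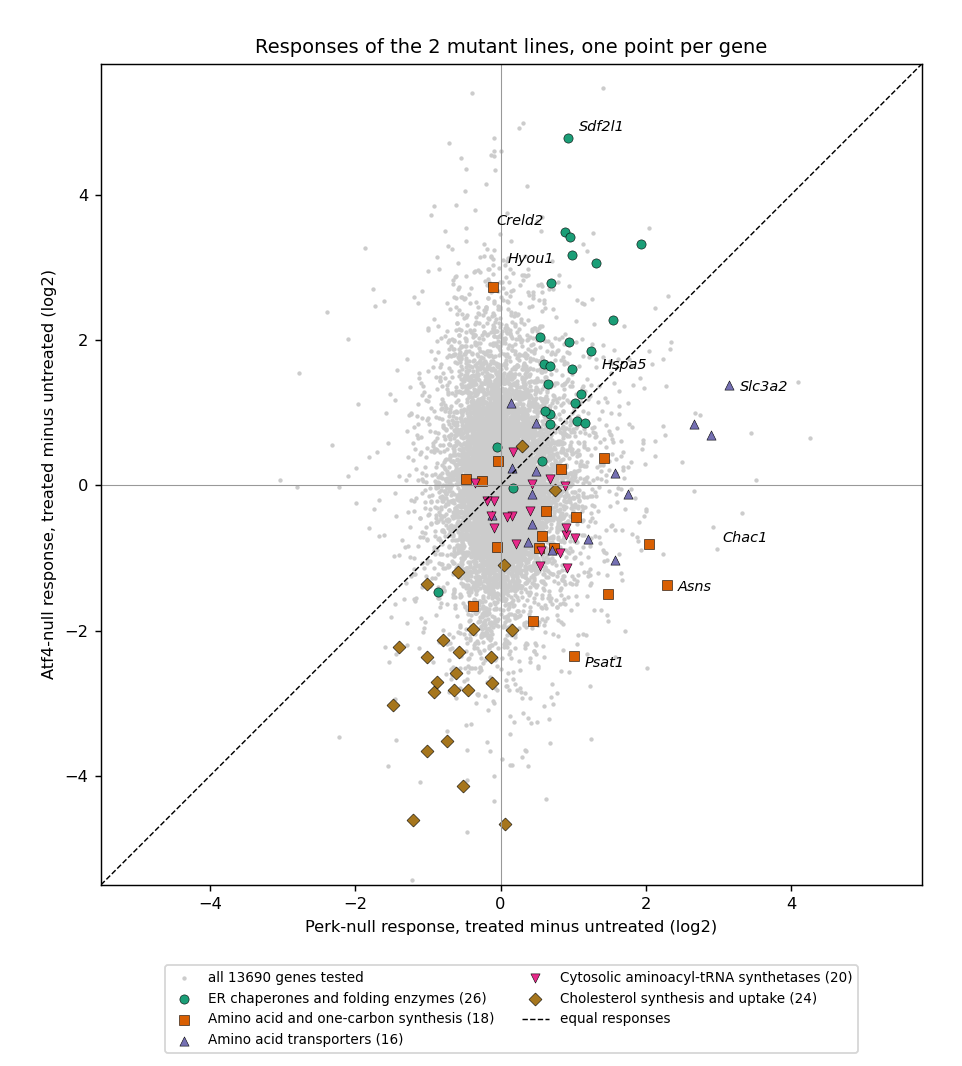
Response of each of 13690 genes, treated minus untreated (log2), in Atf4-null cells (y axis) against Perk-null cells (x axis), with members of 5 lists coloured. The dashed line marks equal responses, and 4 genes lie outside the axes. Most ER chaperones lie above the line, and most genes of amino acid synthesis, transport and tRNA charging and of cholesterol synthesis lie below it.

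The 24 transcription factors and other outputs of the ISR did not move one way. Their median difference was -0.65, and over 24 arrays 1 higher and 6 lower of 24 were called, beside 6.94% and 12.9% of all genes. Ddit3 read 5.56 and 5.32 on the treated and 2.35 and 1.60 on the untreated Atf4-null arrays, against 1.91 and 1.78 on the treated and 0.56 and 0.59 on the untreated Perk-null arrays. Ddit3, the gene of the transcription factor CHOP that promotes apoptosis, rose in both lines, and the difference of 2.20 ± 0.39 was the called one with a positive sign (adjusted p = 0.0705 over 8 arrays, 0.000255 over 24). Both untreated Atf4-null arrays already stood above both untreated Perk-null arrays for Ddit3.

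Chac1 read -0.20 and 0.33 on the treated and 0.46 and 0.83 on the untreated Atf4-null arrays, against 4.09 and 4.33 on the treated and 1.07 and 1.48 on the untreated Perk-null arrays. Chac1, an enzyme that degrades glutathione, rose in Perk-null cells by 2.93 (adjusted p = 5.28e-06), against 2.92 in wild type on the same slide and 4.76 in wild type of the Atf4-null slides, which differed (adjusted p = 0.0302). In Atf4-null cells its change of -0.58 did not pass (adjusted p = 0.0709). The difference was -3.51 ± 0.39 (adjusted p = 0.0467 over 8 arrays and 3.62e-05 over 24).

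Other ISR outputs were lower or did not pass. Atf3, a stress-induced transcription factor, had responses of -0.33 and 1.71 and differed by -2.04 ± 0.37 (adjusted p = 0.000686 over 24 arrays), but after subtraction of wild type the difference was -0.13 (adjusted p = 0.919). The secreted hormone gene Fgf21 was not well above background on any Atf4-null array. On Perk-null arrays it read 0.53 and 0.57 treated and -3.98 and -3.13 untreated, a rise of 4.10 (adjusted p = 0.00164). Stc2, a secreted glycoprotein, differed by -2.01 ± 0.59 (adjusted p = 0.00364), and the difference for Gdf15, another secreted stress factor, did not pass (adjusted p = 0.0847).

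For 3 known ISR genes the difference did not pass, which does not show equal responses. Trib3, a pseudokinase that binds ATF4, rose by 1.74 in Atf4-null and 2.24 in Perk-null cells, against 4.06 and 3.06 in wild type. These are 43.0% and 73.2% of the wild-type responses. The difference of -0.49 ± 0.42 did not pass over 24 arrays (adjusted p = 0.288). Ppp1r15a, the eIF2α phosphatase subunit GADD34, had responses of 0.53 and 0.36, against 2.96 and 3.76 in wild type, and a difference of 0.17 ± 0.25 (adjusted p = 0.498), negative with array median scaling. For Sesn2, a sestrin that restrains mTORC1, the difference was -0.77 ± 0.56 (adjusted p = 0.295). After subtraction of wild type the differences were -1.50 for Trib3, 0.96 for Ppp1r15a and -0.81 for Sesn2. The other eIF2α kinase genes differed by -0.18 for Eif2ak4, -0.15 for Eif2ak1 and -0.05 for Eif2ak2, and none passed (limma over 24 arrays, adjusted p = 0.581, 0.68 and 0.946), while Eif2ak4 and Eif2ak2 had positive differences with quantile normalization.

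Apart from the chaperones, lists nearer to the other ER sensors had small medians. ER-associated degradation, with 23 of 24 genes tested, had median responses of 0.66 in Atf4-null and 0.51 in Perk-null cells but a median difference of -0.20, negative in 13 of 23. Over 24 arrays 5 higher and 3 lower of 23 were called, where 6.94% of all genes were higher and 12.9% lower. Herpud1, which organises the degradation complex, differed by 1.49 ± 0.35 (adjusted p = 0.000756) and Edem1, which selects misfolded glycoproteins, by 1.07 ± 0.33 (adjusted p = 0.00593). Derl3, a membrane protein of the pathway, was not well above background on any Atf4-null array and rose by 2.74 in Perk-null cells, against 8.58 and 7.03 in wild type. The sensors and their transcription factors, all 10 tested, had a median difference of 0.12, positive in 5 and negative in 5. Of these 10, 1 higher and 2 lower were called, beside the same 6.94% and 12.9%. Xbp1 had responses of 1.97 and 1.04 and differed by 0.93 ± 0.30 (adjusted p = 0.00841), and for Atf6 the difference of 1.07 ± 0.53 did not pass (adjusted p = 0.0508). Negative differences included Creb3 (-0.67) and Mbtps1 (-0.71, or -0.08 on a dimmer probe). Translocation and vesicle transport had a median difference of -0.20 with 0 higher and 7 lower of 32 called, beside the same 6.94% and 12.9%. Among the lower ones were Sec62 (-1.14) and Kdelr2 (-0.94), a receptor that returns proteins to the ER.

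**Figure D3:**
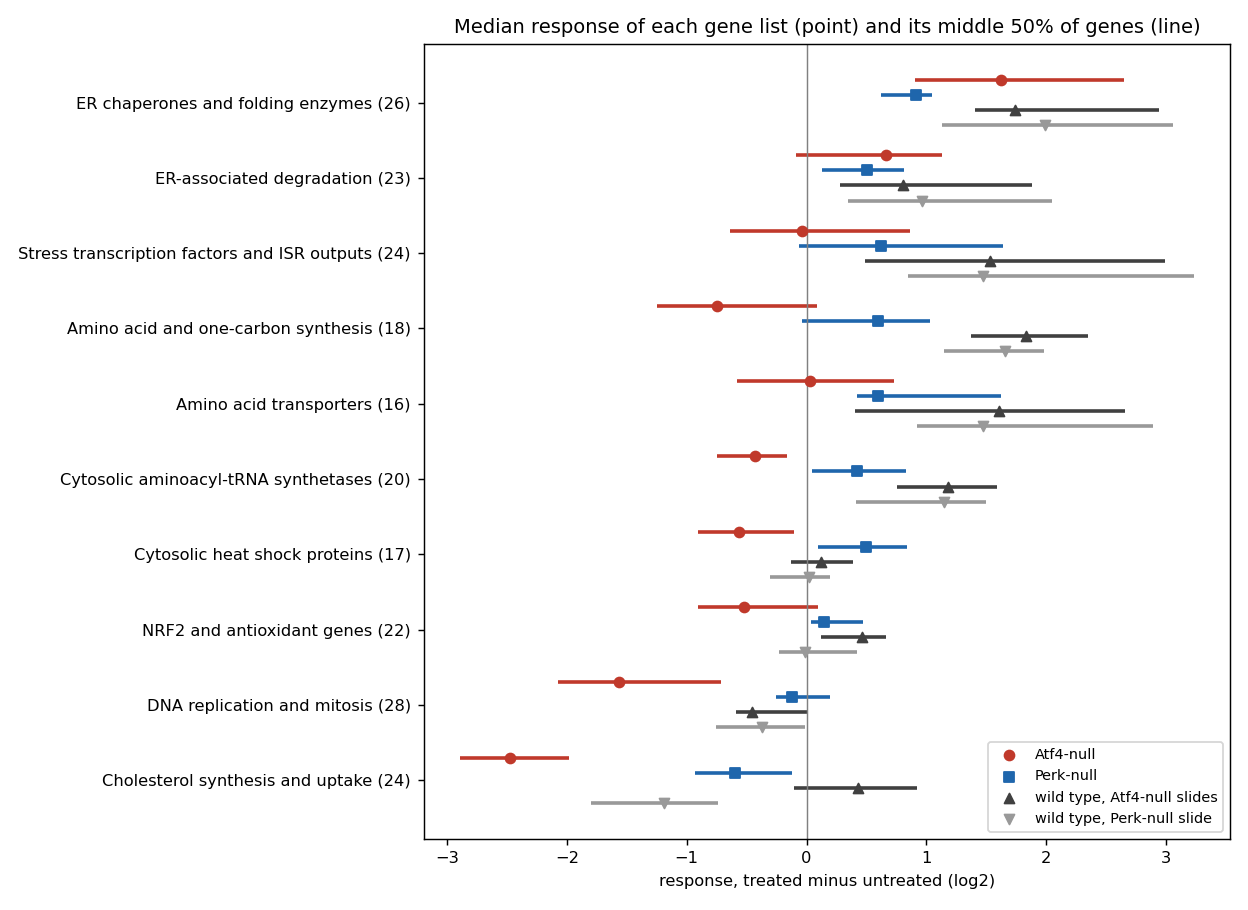
Median response, treated minus untreated (log2, x axis), of 10 gene lists with the number of tested genes (y axis) in Atf4-null, Perk-null and wild-type cells. Points are medians and lines span the middle 50% of genes of the list. For the 3 amino acid lists the Perk-null medians of 0.42 to 0.60 lie between the Atf4-null medians of -0.75 to 0.03 and the wild-type medians of 1.15 to 1.83.

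To express each line against a full response, genes were taken that rose at least 2-fold and passed in both sets of wild-type arrays, which share no array with the 8. They were taken from the genes tested, which were filtered and given a probe on the 8 arrays, so the choice is not independent of these. Slc7a11, Fgf21 and Derl3, not well above background on any Atf4-null array, could enter only through Perk-null arrays. Slc7a11 and Fgf21 were counted as kept in Perk-null cells only, and Derl3 as kept in neither line. How many genes entered through the arrays of 1 line alone, Atf4-null or Perk-null, was not counted, so the part of the filter in the classes below is not known. The genes raised in wild type numbered 375 (2.74%). A line was counted as keeping the response of a gene if its change was at least 50% of that of the wild type set beside it. For Perk-null cells that wild type lay on only 1 of their slides. Of the 375, 89 (23.7%) were kept in Atf4-null cells only, 49 (13.1%) in Perk-null cells only, 33 in both and 204 in neither. With array median scaling these counts were 51, 60, 16 and 248, and the median kept share was 24.8% in Atf4-null and 22.7% in Perk-null cells under the scaling used here.

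The lists fell into different classes. Of 21 chaperones raised in wild type, 10 were kept in Atf4-null cells only, 0 in Perk-null cells only, 10 in both and 1 in neither, or 10, 6, 4 and 1 with array median scaling. Their median kept share was 84.6% in Atf4-null and 48.9% in Perk-null cells. Sdf2l1 kept 112% in Atf4-null and 19% in Perk-null cells, and in the same order Creld2 kept 106% and 25.3%, Hyou1 90.8% and 27.1%, and Hspa5 79.6% and 60.7%. Among the raised genes of amino acid synthesis 0 of 14 were kept in Atf4-null cells and 6 in Perk-null cells, with median shares of -38.4% and 43.7%. For transporters it was 0 and 5 of 10, the 5 including Slc7a11, which was not well above background on any Atf4-null array, and for synthetases 0 and 4 of 11, except that 1 transporter was kept in Atf4-null cells with quantile normalization. Ddit3 kept 73.3% in Atf4-null and 27.5% in Perk-null cells, and Chac1 -12.1% and 100%. Genes with signal not well above background were counted at their measured value.

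**Figure D4:**
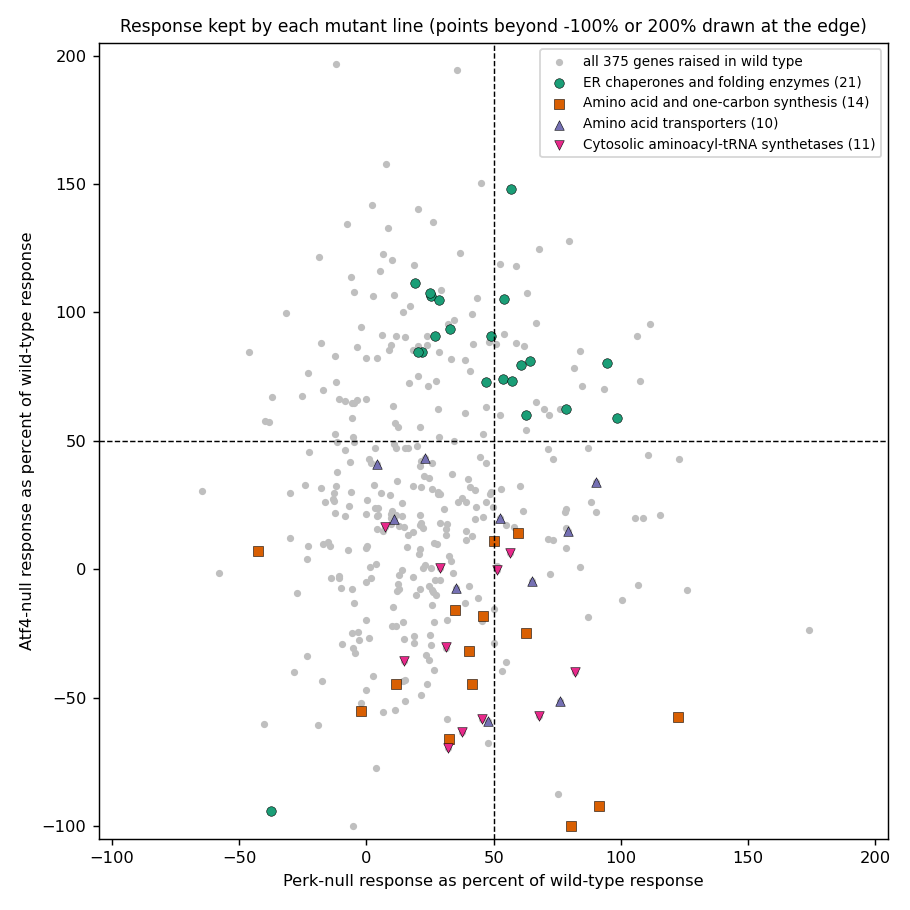
Atf4-null response (y axis) and Perk-null response (x axis) as percent of the response of the wild type set beside each line, for the 375 genes raised in both wild-type sets. For Perk-null cells that wild type lay on only 1 of their slides. Dashed lines mark 50%, and 2 points beyond the axes are drawn at the edge. All but 1 of the 21 chaperones lie above 50% on the y axis, and no gene of the 3 amino acid lists does.

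Promoters of genes at both ends were read from RefSeq (GRCm38.p6) at the first start listed for the gene, 250 bases before to 50 after the start site, 5′ to 3′ along the gene. Sdf2l1 and Creld2 are chaperone genes called over 8 arrays, and Hspa5 is one with a small difference. Asns and Chac1 are the amino acid and ISR genes called lower, and Psat1 is an amino acid gene that did not pass over 8 arrays. Of these, only promoters with a match to a motif below are printed, and those of Sdf2l1 and Psat1 had none. Capitals mark the ER stress response element (CCAAT, then 9 bases of any kind, then CCACG), a site described for ATF6 with the factor NF-Y, or the C/EBP-ATF response element TGATGNAA, a site described for ATF4 with a C/EBP partner, on either strand.
Creld2, chr15:88819396-88819695, plus strand: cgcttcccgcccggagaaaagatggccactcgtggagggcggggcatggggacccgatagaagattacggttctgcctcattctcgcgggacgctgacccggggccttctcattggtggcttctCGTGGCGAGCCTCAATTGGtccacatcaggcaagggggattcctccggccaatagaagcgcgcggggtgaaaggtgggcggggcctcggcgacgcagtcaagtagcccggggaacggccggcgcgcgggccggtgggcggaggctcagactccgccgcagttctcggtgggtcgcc
Hspa5, chr2:34771840-34772139, plus strand: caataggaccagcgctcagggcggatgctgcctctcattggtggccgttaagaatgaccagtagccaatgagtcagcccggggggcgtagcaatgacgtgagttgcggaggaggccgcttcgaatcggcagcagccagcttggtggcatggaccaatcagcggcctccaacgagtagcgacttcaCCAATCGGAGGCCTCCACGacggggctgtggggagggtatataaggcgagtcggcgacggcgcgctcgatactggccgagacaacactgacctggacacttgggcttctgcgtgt
Asns, chr6:7693160-7693459, minus strand: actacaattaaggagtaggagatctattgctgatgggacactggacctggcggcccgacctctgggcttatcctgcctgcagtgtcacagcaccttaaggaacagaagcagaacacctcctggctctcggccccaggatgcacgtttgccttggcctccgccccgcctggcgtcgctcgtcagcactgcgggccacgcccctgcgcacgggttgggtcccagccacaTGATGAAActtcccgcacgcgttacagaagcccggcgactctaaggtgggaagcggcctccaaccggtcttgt
Chac1, chr2:119350992-119351291, plus strand: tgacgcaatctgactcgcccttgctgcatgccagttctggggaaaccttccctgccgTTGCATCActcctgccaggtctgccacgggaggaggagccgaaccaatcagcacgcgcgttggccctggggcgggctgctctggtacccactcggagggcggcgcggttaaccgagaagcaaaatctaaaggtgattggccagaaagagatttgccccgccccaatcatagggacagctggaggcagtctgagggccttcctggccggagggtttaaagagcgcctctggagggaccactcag
The element begins 126 bases before the start site in Creld2, on the reverse strand, and 65 before it in Hspa5. In Asns the C/EBP-ATF element begins 23 bases before the start site, and in Chac1, on the reverse strand, 193 before it.

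Among the 375 genes, 296 had a promoter in the table. The ER stress response element was in 6 of 77 promoters (7.79%) of genes kept in Atf4-null cells only, 0 of 42 of those kept in Perk-null cells only, 4 of 30 kept in both and 1 of 147 kept in neither. It was in 17 of 10882 promoters (0.156%) of genes tested, 35 of all 27025 (0.13%) and in 8 of 23 (34.8%) of the chaperones. The C/EBP-ATF element was in 2 of 77 promoters (2.60%) of genes kept in Atf4-null cells only and in 8 of 42 (19.0%) of those kept in Perk-null cells only, 2 of 30 (6.67%) kept in both and 7 of 147 (4.76%) kept in neither, against 252 of 10882 (2.32%) for genes tested and 4.06% of all promoters. In the amino acid lists it was in 4 of 15 synthesis, 2 of 12 transporter and 5 of 13 synthetase promoters. The promoters of Sdf2l1 and Psat1 held neither set of letters. A match is a description of the letters and not a binding site shown here.

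Other lists differed too. Their counts called over 24 arrays, here and below, stand beside 6.94% higher and 12.9% lower of all genes. Between the wild-type responses of the sets, 413 genes (3.02%) passed a limma test over 16 arrays, and the difference of mutant responses after subtraction of wild type passed for 761 (5.56%). Cholesterol synthesis and uptake had the lowest median difference of the 19 functional lists, -1.89, with 0 higher and 19 lower of 24 called over 24 arrays. Its median response was -2.48 in Atf4-null and -0.60 in Perk-null cells, and 0.43 and -1.19 in the wild-type cells of their slides. Idi1, an isomerase of the mevalonate pathway, had responses of -4.61 and -1.20 (adjusted p of the difference = 0.00242 over 24 arrays).

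DNA replication and mitosis genes, 28 of 29 tested, had a median response of -1.57 in Atf4-null and -0.13 in Perk-null cells, against -0.46 and -0.37 in wild type. Over 24 arrays 0 higher and 23 lower of 28 were called, and after subtraction of wild type 0 higher and 5 lower. Plk1 read 1.76 and 3.45 on the treated and 5.42 and 5.98 on the untreated Atf4-null arrays, against 5.00 and 4.97 on the treated and 5.26 and 5.07 on the untreated Perk-null arrays. Plk1, a mitotic kinase, differed by -2.92 ± 0.73 (adjusted p = 0.00146), and the cyclin Ccna2 by -2.11 ± 0.40 (adjusted p = 0.000423). All treated Atf4-null values of both genes lay below all other values in the 8 arrays.

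Heat shock proteins of the cytosol had median responses of opposite sign, -0.57 in Atf4-null and 0.49 in Perk-null cells, with 0.12 and 0.02 in wild type, and 0 higher and 9 lower of 17 called. After subtraction of wild type 0 higher and 3 lower were called, where 5.56% of all genes passed. Hsph1 read 3.35 and 2.85 on the treated and 4.14 and 4.46 on the untreated Atf4-null arrays, against 4.97 and 5.33 on the treated and 3.88 and 3.75 on the untreated Perk-null arrays. Hsph1, an exchange factor of HSP70, fell in Atf4-null and rose in Perk-null cells, a difference of -2.54 ± 0.36 (adjusted p = 0.0547 over 8 arrays and 2.61e-05 over 24). Antioxidant genes of the NRF2 list had 1 higher and 10 lower of 22 called and a median difference of -0.83, and mitochondrial proteases and chaperones 0 higher and 5 lower of 20 and -0.48. After subtraction of wild type each of these lists had 0 higher and 1 lower called. Of glycolysis and hypoxia targets 4 higher and 2 lower of 25 were called, beside 6.94% and 12.9% of all genes, with Angptl4, a secreted lipase inhibitor, at -3.62 ± 0.89 (adjusted p = 0.00172), or -0.67 after subtraction of wild type (adjusted p = 0.755), and its opposite, the oxygen sensor Egln1, at 2.14 ± 0.54 (adjusted p = 0.00409).

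Secreted and immune genes are given beside the wild-type values. Cytokines and chemokines, 13 of 16 tested, had 0 higher and 6 lower of 13 called and medians of -0.83 in Atf4-null and 0.85 in Perk-null cells, against -3.90 and -0.74 in wild type. Their median difference of -0.89 became 1.56 after subtraction of wild type, with 2 called higher and 1 lower. Cxcl10 read 2.21 and 2.98 on the treated and 3.61 and 3.32 on the untreated Atf4-null arrays, against 4.91 and 4.96 on the treated and 1.81 and 2.11 on the untreated Perk-null arrays. Cxcl10, a chemokine induced by interferon, rose by 2.98 in Perk-null cells (limma, adjusted p = 5.28e-06 over 24 arrays and 0.0421 over 8). It fell by 0.87 in Atf4-null cells over 24 arrays (adjusted p = 0.0118), which did not pass over 8 (adjusted p = 0.102). Its responses in wild type were -1.59 and -0.74. The difference of the mutant responses was -3.85 ± 0.41 (adjusted p = 0.0467 over 8 arrays and 2.61e-05 over 24). Interferon-stimulated genes, 21 of 23 tested, had a median difference of 0.58, or -0.05 with array median scaling, and none was called over 24 arrays (limma, 5 at an unadjusted p under 0.05). Their median response was 0.79 in Atf4-null and 0.14 in Perk-null cells, against -2.69 and -0.26 in wild type. After subtraction of wild type the median difference was 3.37, with 2 called higher and 0 lower. Of extracellular matrix genes 0 higher and 7 lower of 27 were called, among them thrombospondin Thbs1 at -3.74 ± 0.61 (adjusted p = 0.00146), and of matrix metalloproteinases and their inhibitors 1 higher and 3 lower of 12. After subtraction of wild type the matrix list had 3 higher and 1 lower, its median being 0.55 in place of -0.56, and the metalloproteinase list 2 higher and 1 lower, with 0.20 in place of -0.43.

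Most of the 21 genes called over the 8 arrays stood in none of the lists. C3, the central complement component, had the largest difference among those well above background in both lines: it read 5.49 and 6.39 on the treated and 1.31 and 0.74 on the untreated Atf4-null arrays, against 3.19 and 3.23 on the treated and 2.65 and 3.25 on the untreated Perk-null arrays. Over 24 arrays with a scan run term C3 did not pass (adjusted p = 0.0941). It rose by 4.92 in Atf4-null cells and fell by 7.53 in the wild-type cells of the same slides. Fam186a was well above background only on the treated Atf4-null arrays, where it was at least 7.05-fold higher than on the untreated ones, so its call rests on the group where it was high. Spaca9 had responses of 2.41 and -0.57, the reductase gene Dhrs11 of 1.61 and -0.70, and the glutathione transferase Gsto2 of 2.20 and -0.24. The phosphatase Ptpn7 was at least 1.88-fold higher with tunicamycin in Atf4-null cells, measured well above background on 1 of the 2 treated arrays, and had a response of -0.18 in Perk-null cells.

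The other lower genes came mostly from falls in Atf4-null cells. The matrix phosphoprotein Spp1 fell by 3.17 in Atf4-null cells, with 0.13 in Perk-null cells. S100a11, a calcium-binding protein, fell by 2.81, smooth muscle actin Acta2 by 2.44, the spindle protein Tpx2 by 2.57 and the lysosomal protease Ctsc by 1.91. Histone gene H2bc8 was at least 2.42-fold lower with tunicamycin in Atf4-null cells. The serine protease Prss23 had responses of -1.86 and 1.48, and Ddit4l, an mTORC1 inhibitor, of -1.30 and 1.67, with 1 of the 2 treated Atf4-null arrays well above background. Pmepa1, a regulator of TGF-beta signalling, had -1.87 and 0.61. Ccn4, a matricellular protein gene outside the rule for named genes and named after its values were seen, had -1.68 and 0.56. Some of these genes fell in wild type too. On the Atf4-null and Perk-null slides wild type changed by -2.31 and -0.38 for Acta2 and -2.05 and -1.71 for Pmepa1. In the same order it changed by -1.23 and -0.09 for Ctsc, -0.97 and -1.71 for H2bc8, -0.80 and -1.25 for Prss23 and -1.03 and -0.45 for Ddit4l. Changes were -0.58 and 0.45 for Spp1, -0.55 and -0.99 for S100a11, 0.04 and -0.08 for Tpx2 and 0.09 and 0.14 for Ccn4. After subtraction of the wild-type response, 17 of the 21 passed with the same sign (limma over 16 arrays), and the exceptions were Ptpn7, Gsto2, Acta2 and Ctsc.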

How the data were processed

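Total RNA of mouse embryonic fibroblasts was hybridised to 1-colour Agilent arrays. Per the file headers, the authors extracted intensity with Agilent Feature Extraction 10.7.1.1, and the processed signal is background-subtracted. The deposited series table holds log2 values centred per probe, 98.9% of them within 0.01 of the scanner values once these were centred in the same way; its column medians were 0.49 and -0.06 (treated Atf4-null), -0.19 and -0.25 (untreated Atf4-null), 0.39 and -0.32 (treated Perk-null) and -0.19 and 0.31 (untreated Perk-null), and the baseline of its centring is unknown. It served as an alternative.

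Here log2 processed intensity minus each array's 75th percentile was used. Of 55681 probes, 26631 had a gene name, giving 20154 genes. For the 4385 genes with several probes the brightest was used. Genes well above background on both arrays of at least 1 group were tested (13690 genes; 6464 were not). Differences were tested with limma 3.58.1 in R 4.3.3 with Benjamini-Hochberg adjustment over all genes, at a threshold of 0.05, with 4 residual degrees of freedom over 8 arrays, 12 over 24 and 8 over 16. The number of arrays limits the precision. "At least" folds set the bright group against the higher of the dim probe's signal and the lowest signal well above background on each array. The scripts were tested on simulated data. Named genes were the 12 largest called and separated differences in each direction, the 6 largest of each list and a fixed set. The members and lists were chosen with earlier results of these data known. Same-numbered replicates correlated at 0.11 (Atf4-null) and -0.41 (Perk-null), so the numbers were not taken to pair arrays. Perk-null arrays of 1 slide, which carry different numbers, correlated at 0.41, and that slide was tried as a block. Some members of the cholesterol list are not reported here.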

Additional observations from a re-analysis of the deposited data

Results flagged for a closer look

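The responses of the lines differed by the test of the difference itself (limma over the 8 arrays, adjusted p = 0.0467, and 0.0494 for Tpx2) in 21 genes, each given as Atf4-null minus Perk-null response on the log2 scale. It was higher for Fam186a (5.42), C3 (4.66), Sdf2l1 (3.85), Spaca9 (2.98), Creld2 (2.59), Ptpn7 (2.48), Gsto2 (2.43) and Dhrs11 (2.32). It was lower for Cxcl10 (-3.85), Asns (-3.67), Chac1 (-3.51), Prss23 (-3.35), Spp1 (-3.31), S100a11 (-3.04), Ddit4l (-2.98), Acta2 (-2.84), Ctsc (-2.77), H2bc8 (-2.76), Pmepa1 (-2.48), Tpx2 (-2.27) and Ccn4 (-2.24). The values of Fam186a, Ptpn7, H2bc8 and Ddit4l include arrays not well above background and depend on the signal there. Fam186a was well above background on the treated Atf4-null arrays only, so it entered the test through the group where it was high.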

How the results depend on the processing

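The number of genes called for the difference of responses depended on the processing, and the cause was not tested. It was 2230 over 24 arrays with a scan run term and 2719 with wild type split by slides, 119 with quantile normalization, 764 with array medians, 268 with normexp, 366 with an intensity trend, 293 among genes well above background on all 8 arrays, and 21 with the deposited table. It was 0 without a filter on dim probes (limma, 2551 at an unadjusted p under 0.05), with the replicate block (2842), with the slide of the Perk-null arrays as a block (2357) and with either slide alone (1006 and 830). Under the replicate block the Atf4-null response had 823 calls and the Perk-null response 0 (1073 unadjusted). Over 24 arrays these responses had 4200 and 347 calls with the run term, 4655 and 522 without it. Leaving out 1 array gave 0 to 2025 calls for the difference, 417 to 3776 for the Atf4-null and 0 to 8 for the Perk-null response, 206 to 2208 after subtraction of wild type and 99 to 792 between wild-type sets; over 24 arrays the last counts were 2135 and 1159, and 1731 for the subtracted difference with scan as a block. The 21 called genes kept their sign in every setting that tested them. Medians kept their sign in all 22 settings for chaperones (0.03 to 1.03), amino acid synthesis (-1.91 to -0.90), transporters (-1.92 to -0.97) and synthetases (-1.32 to -0.48). They were positive in 3 settings and negative in 19 for ER-associated degradation and for glycolysis, 1 and 21 for translocation and for extracellular matrix, 20 and 2 for interferon-stimulated genes, and 17 and 5 for the sensors and their transcription factors. The wild-type classes, kept in Atf4-null only, Perk-null only, both and neither, were 96, 72, 59 and 148 with 0.333 of the wild-type response as limit, 102, 50, 42 and 181 with quantile normalization, and 51, 60, 16 and 248 with array medians.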
